A study of Mus musculus with 6 samples.

Results

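The Notch genes described here are the receptors Notch1 and Notch2, the ligands Jag1, Jag2 and Dll1, the DNA-binding factor Rbpj, the target genes Hes1, Nrarp and Dtx1, and Dtx4, a relative of Dtx1. The 10 genes were chosen by name, with values of the comparison below already known, and each of their probes was taken. The array lists 36693 gene names in all, and the 10 are covered by 14 of the 56605 probes on the array that are not controls. Gene expression was measured in LSK cells (lineage-negative, Sca-1-positive, c-Kit-positive), the bone marrow (BM) fraction that holds haematopoietic stem cells and early progenitors. The cells came from C57BL/6 mice at P6 to P8. The 3 control samples were Atg5w/w;VaviCre+, with the intact Atg5 gene, and the 3 Atg5f/f;VaviCre+ samples, called Atg5f/f;Vav, carried loxP-flanked Atg5, a gene needed to build autophagosomes. All 6 samples thus carried the Cre recombinase, which the Vav promoter drives in haematopoietic cells. The sources used here do not say whether a sample was 1 mouse or a pool, so n and SD refer to arrays, and p-values measure the spread between these samples, which may be technical.

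Notch receptors are cleaved when a ligand on a neighbouring cell pulls on them. The metalloproteases and then gamma-secretase cut the receptor, and its intracellular part enters the nucleus, binds Rbpj and, with Mastermind-like proteins, turns on genes such as Hes1. In blood development Notch1 is known for starting the T cell lineage and for its part in the emergence of stem cells in the embryo, and Notch2 for marginal zone B cells. Ligands of the Jagged and Delta families are carried by stromal and endothelial cells of the niche among others.

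Each value below is the log2 signal of a 60-base probe minus the 75th percentile of its own array, so 0 is the 75th percentile itself, and a difference is the mean of the Atg5f/f;Vav arrays minus the mean of the control arrays. Levels of different probes are not compared, because brightness also depends on the probe. A probe was tested where its signal was well above background, as called by the scanner software, on at least 3 of the 6 arrays, which left 8 probes of 6 Notch genes (Notch1, Notch2, Jag2, Rbpj, Nrarp and Dtx4). Since the genes were chosen with this comparison known, their differences are given as a description, with no test.

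The main difference among these genes was at Notch1, and its probes are shown because they matched different transcripts. The first begins at base 5898 of the RefSeq transcript (mm9, chr2:26319440-26319499, minus strand), and the second lies 34609 bases away in a transcript listed by Ensembl alone (mm9, chr2:26354049-26354108, minus strand). All letters are in lower case because no part is singled out.
Notch1 first probe: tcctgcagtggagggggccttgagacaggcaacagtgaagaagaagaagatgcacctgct
Notch1 second probe: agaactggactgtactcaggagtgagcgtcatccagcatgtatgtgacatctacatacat

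The 250 bases before the annotated start were searched on both strands for TGGGAA, the core of the motif that Rbpj binds. RefSeq promoters (GRCm38.p6) were found for 8 of the 10 genes, and Hes1 and Dtx4 had no entry. The core stood in both promoters of Rbpj itself, and in none of those found for Notch1, Notch2, Jag1, Jag2, Dll1, Nrarp and Dtx1. Of all 32851 promoters of this length, 21.59% held it. The first Rbpj promoter (chr5:53590096-53590345, plus strand) is shown with the core in capitals, once on the plus strand and once on the minus strand, where it reads TTCCCA, beginning 149 and 65 bases before the start. The second promoter overlaps the first and holds the same minus-strand match. A match is a description of the letters and not a binding site.
Rbpj promoter: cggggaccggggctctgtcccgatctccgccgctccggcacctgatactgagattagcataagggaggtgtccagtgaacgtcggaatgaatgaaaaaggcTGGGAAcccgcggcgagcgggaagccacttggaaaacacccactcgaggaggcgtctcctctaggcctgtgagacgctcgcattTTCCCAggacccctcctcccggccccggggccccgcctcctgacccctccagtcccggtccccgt

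Some facts of the whole series bear on what follows. The 75th percentile of intensity ranged from 620.3 to 881.4 over the arrays, and 53.6% to 59.9% of spots were well above background. All arrays shared 1 slide and 1 scan, with the controls in the first row and the Atg5f/f;Vav arrays in the second, so the row on the slide and the genotype cannot be told apart. The Atg5 probe (mm9, chr10:44083997-44084056) was brighter on the Atg5f/f;Vav arrays, at 1.46, 1.51 and 1.74, than on the controls, at 1.10, 0.93 and 1.06 (log2 difference 0.54, SE 0.12, limma adjusted p = 0.021). Whether it lies in the deleted part was not determined here, so it does not check the labels, and groups are named as labelled. The 8 LSK markers examined, Kit, Cd34 and Flt3 among them, were well above background on all arrays.

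Notch1 signal was lower on every Atg5f/f;Vav array than on any control array, by both probes. At the first probe the controls read 2.16, 2.72 and 1.97 and the Atg5f/f;Vav arrays 0.23, 0.61 and -0.67. The groups did not overlap, the lowest value being that of Atg5f/f;Vav replicate 3. The means were 2.28 ± 0.39 and 0.05 ± 0.66 (SD, n = 3 each), a log2 difference of -2.23 (SE 0.35), or 4.68-fold lower. Of the 32073 probes tested, 0.826% differed by more in either direction. That share is a description and no test, since the gene was chosen with this comparison known. At the second probe, which was dimmer, the controls read -1.72, -2.10 and -2.09 and the Atg5f/f;Vav arrays -2.50, -3.12 and -3.93. Here too the groups did not overlap and Atg5f/f;Vav replicate 3 was the lowest, with a log2 difference of -1.22 (SE 0.34), which came to -0.72 with normexp background correction. The ratio of the first to the second probe within an array was itself lower on the Atg5f/f;Vav arrays (3.24 ± 0.50 against 4.25 ± 0.50 on the log2 scale, SD, n = 3 each), so the signals of the probes did not change equally. In RNA from a sorted population, fewer cells of a type and less RNA per cell cannot be told apart.

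Notch2, the other receptor of the set, read nearly the same on all arrays at its bright probe (mm9, chr3:97953914-97953973). The controls were at 2.32, 2.24 and 2.30 and the Atg5f/f;Vav arrays at 2.34, 2.23 and 2.37. The groups overlapped, with a log2 difference of 0.02 (SE 0.10), which was -0.18 when arrays were scaled to the 75th percentile of detected probes. The SD among controls was 0.04, against a median of 0.137 over all tested probes. The second Notch2 probe, 49494 bases away, was well above background on no array and gave -5.34 to -4.91 in the controls and -6.36 to -5.55 in Atg5f/f;Vav. The log2 ratio of Notch1 to Notch2 within an array does not depend on a scaling factor of the array, and it was -0.16, 0.48 and -0.33 in the controls against -2.11, -1.62 and -3.04 in Atg5f/f;Vav. The change of -2.25 shows that the receptors moved unequally on these arrays.

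**Figure D1:**
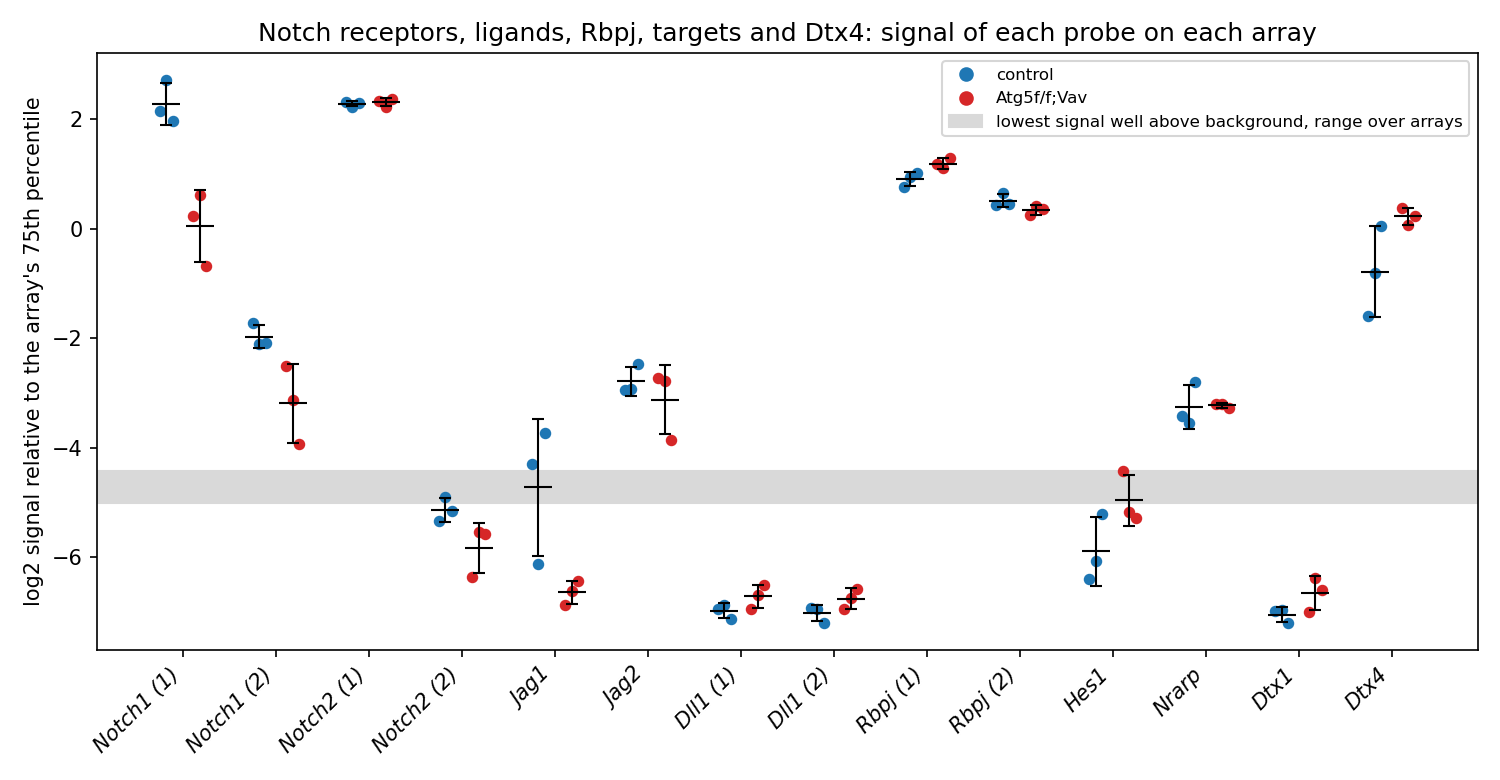
Log2 signal relative to the array's 75th percentile (vertical axis) of each of the 14 probes of the 10 Notch genes on the 3 control and 3 Atg5f/f;Vav arrays, with 1 point per array, the mean as a long bar and the SD as the error bar, and the grey band marking the lowest signal called well above background, which ranged from -5.00 to -4.42 over the arrays. Numbers in brackets tell probes of the same gene apart. Notch1 is lower in Atg5f/f;Vav at both probes, Notch2 (1) is level, and the probes of Dll1 and Dtx1 lie under the band throughout.

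Of the 3 ligand genes, only Jag2 was bright enough to be tested. Its controls read -2.95, -2.92 and -2.47 and the Atg5f/f;Vav arrays -2.73, -2.79 and -3.85. The groups overlapped, and the difference of -0.34 (SE 0.32) rested on Atg5f/f;Vav replicate 3, since it was 0.03 without that array. Jag1 was well above background on control replicates 1 and 3 alone, with -4.29, -6.13 and -3.74 in the controls and -6.87, -6.62 and -6.44 in Atg5f/f;Vav. With the Atg5f/f;Vav arrays and control replicate 2 not well above background, no fold is given for it. Both Dll1 probes were well above background on no array and stood at the scanner software's substitute value for dim spots on all 6, between -7.20 and -6.51.

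Jag1 is a ligand of niche cells, so the stromal markers were read beside it. Of 10 stromal markers, 8 were well above background on at least 1 array and Pdgfra and Col3a1 on none. The log2 of their summed signal was 3.36, 5.36 and 4.95 in control replicates 1, 2 and 3 and 2.78 to 3.27 in Atg5f/f;Vav. Col1a1, the main collagen of bone stroma, read -4.14, 3.23 and 2.95 in the controls and -5.49 to -5.16 in Atg5f/f;Vav, where it was well above background on no array. Col1a2 (-3.70, limma adjusted p = 0.036) and Sparc (-2.59, adjusted p = 0.030) were lower as well, mostly through control replicates 2 and 3. Col1a2 read -0.90, 3.47 and 2.90 in the controls and -2.10 to -1.60 in Atg5f/f;Vav. Sparc read 0.63, 3.36 and 3.15 in the controls and -0.53 to -0.01 in Atg5f/f;Vav. Lepr (-0.24), Cxcl12 (-1.02), Dcn (-2.34) and Pdgfrb (0.52) did not pass, and their groups overlapped. Control replicate 2 was thus the highest by the summed signal of the stromal markers, though not for each of them, and the lowest control for Jag1. The part of stromal RNA in the Jag1 values was not tested.

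Rbpj, to which all Notch receptors signal, gave opposite differences at its probes. At the first probe (mm9, chr5:54047306-54047365) the controls read 0.77, 0.94 and 1.02 and the Atg5f/f;Vav arrays 1.19, 1.10 and 1.29, a difference of 0.28 (SE 0.12). At the second (mm9, chr5:54027234-54027293), 20072 bases away, the controls read 0.43, 0.66 and 0.46 and the Atg5f/f;Vav arrays 0.25, 0.42 and 0.35, a difference of -0.18 (SE 0.12). The groups did not overlap at either probe, the first being higher and the second lower in Atg5f/f;Vav, and the mean of both probes differed by 0.05. The log2 ratio of the first to the second probe within an array was 0.34, 0.28 and 0.56 in the controls and 0.94, 0.68 and 0.93 in Atg5f/f;Vav.

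Among the targets, Nrarp, a feedback inhibitor that binds the Notch transcription complex, read -3.42, -3.54 and -2.80 in the controls and -3.20, -3.19 and -3.28 in Atg5f/f;Vav. The groups overlapped, with a difference of 0.03 (SE 0.20), which ranged from -0.18 to 0.33 over the alternative settings. Hes1, a repressor of the basic helix-loop-helix class, was well above background on Atg5f/f;Vav replicate 1 alone, at -6.41, -6.08 and -5.20 in the controls and -4.43, -5.17 and -5.28 in Atg5f/f;Vav. These groups overlapped and no fold is given. Dtx1, a ubiquitin ligase that binds Notch, was well above background on no array, between -7.20 and -6.38.

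Dtx4, a ubiquitin ligase of the same family, was higher on each Atg5f/f;Vav array than on any control, but by little. The controls read -1.60, -0.81 and 0.06 and the Atg5f/f;Vav arrays 0.39, 0.07 and 0.23. The highest control and the lowest Atg5f/f;Vav array were at 0.061 and 0.066. The difference was 1.01 (SE 0.38), and it was 0.60 without control replicate 1 and 1.43 without control replicate 3. The spread lay in the controls, whose SD of 0.83 exceeded that of 99.3% of all tested probes, against an SD of 0.16 in Atg5f/f;Vav.

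Across the 8 tested probes, 2 passed the threshold of limma's test (adjusted p under 0.05 over all probes), both of Notch1 and both lower. Of all tested probes 34.4% passed it, 17.3% higher and 17.1% lower. In 5 of the 8 the groups did not overlap, as in 55.4% of all tested probes. The genes were chosen with this comparison known, so nothing is read from these counts. Without control replicate 1 or without control replicate 2, none of the 8 passed (2 had an unadjusted p under 0.05 each time). Without Atg5f/f;Vav replicate 2 the count was 1, a Notch1 probe. Without control replicate 3 it was 2, but these were 1 Notch1 probe and Dtx4. The Notch1 differences kept their sign in each of the 12 settings that changed values or arrays. Leaving out an array could not change that sign, because the groups did not overlap, and neither could the replicate block.

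**Figure D2:**
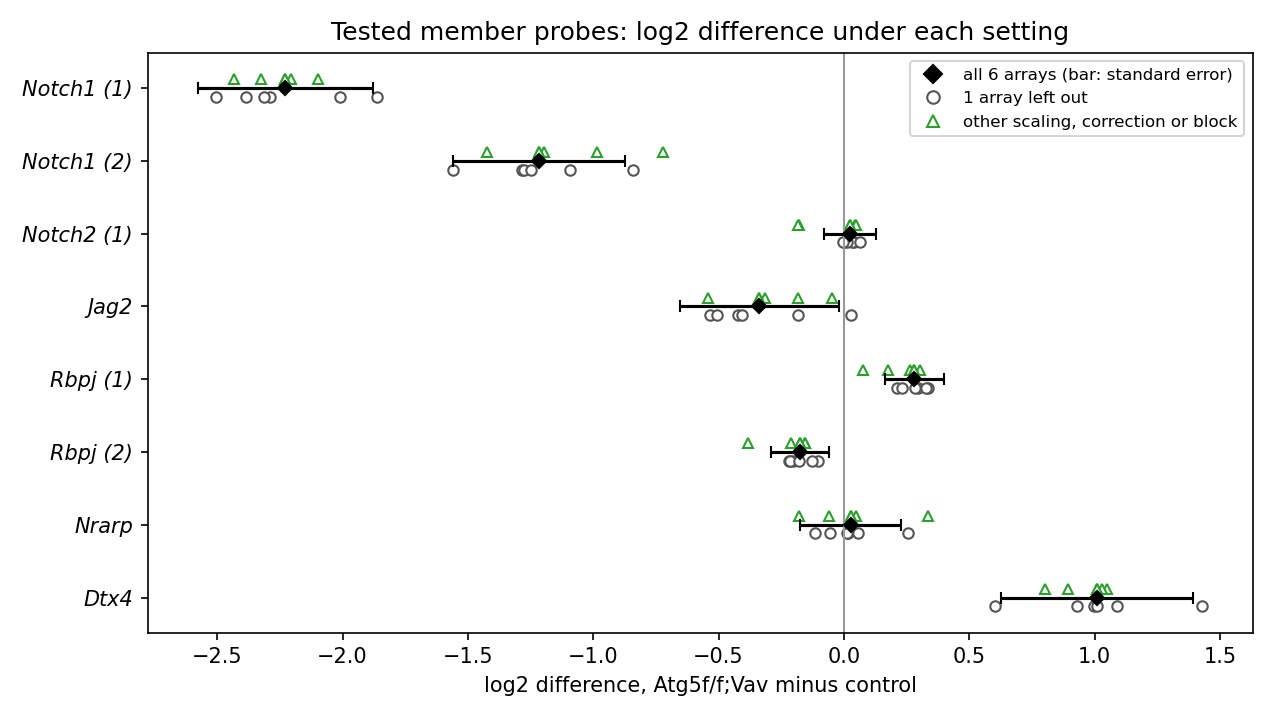
Log2 difference between Atg5f/f;Vav and control (horizontal axis) of the 8 tested probes of the Notch genes, with all 6 arrays (diamond, bar for the standard error), with 1 array left out (circles), and under another scaling, background correction or block (triangles). Notch1 stays below 0 throughout, from -2.51 to -1.86 at the first probe and from -1.56 to -0.72 at the second, while Notch2, Jag2 and Nrarp have values on both sides of 0.

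Atg5f/f;Vav replicate 3 was the lowest array for Notch1, and it was also the lowest for some markers of stem cells and endothelium. The log2 of the summed signal of the 8 LSK markers was 7.11 to 7.22 in the controls and 7.26, 6.96 and 6.55 in Atg5f/f;Vav replicates 1, 2 and 3. The bright Cd34 probe, which differed by -0.27 and did not pass, weighs most in it. Procr, which marks stem cells within LSK, read 2.52, 2.46 and 2.33 in the controls and 1.49, 1.27 and -0.12 in Atg5f/f;Vav, a difference of -1.56 (limma adjusted p = 0.027). Ly6a, which encodes Sca-1, on which the cells were sorted, was higher in Atg5f/f;Vav by 1.57 (adjusted p = 0.0062). The 9 endothelial markers, 7 of them well above background on all arrays, summed in the same way to 6.56 to 6.80 in the controls and 5.81 to 6.69 in Atg5f/f;Vav. Cdh5, which defines endothelium, was well above background on no array. The bright Egfl7 probe, which differed by -0.39 and did not pass, sets most of this sum. Kdr (-1.42, adjusted p = 0.014) and Emcn (-1.36, adjusted p = 0.039) were lower and Plvap was higher (0.58, adjusted p = 0.029). The other endothelial markers tested did not pass. The 8 T cell markers summed to 2.92 to 2.99 and 2.56 to 3.04, with Cd8a and Cd3g well above background on none. The 8 erythroid markers summed to 8.45 to 9.48 in the controls and 7.16 to 7.48 in Atg5f/f;Vav. That sum follows the bright globin probes, and the list was split. Hba-a1, an alpha globin gene, was lower (-2.26, adjusted p = 0.014), as were Hbb-bt, Alas2 and Slc4a1, while the erythroid factor Klf1 (2.95, adjusted p = 0.016) and the erythropoietin receptor Epor (2.08, adjusted p = 0.018) were higher and Ermap did not pass. The part of the cell mixture in the Notch1 values was not tested.

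The 5 genes whose signal followed Notch1 most closely over the 6 arrays were 9630010G10Rik, Cnot6l, Nos1ap, Baz2b and Wars2, each with Pearson's r of at least 0.9988 among 28111 probes detected on all arrays. Their differences were smaller than that of Notch1, from -0.69 to -0.43. Correlations over 6 arrays in 2 groups follow the group difference, and 1626 probes reached an r above 0.95. The same ranking for Hes1 was led by Nlrx1, Sh2b2, Ttll9, Ppp2cb and Pi4k2a, but the Hes1 probe was well above background on 1 array alone.

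Of 73 other genes of the pathway, 65 had a tested probe. Each was read at its brightest probe, and 9 were higher, 9 lower and 47 did not pass limma's test, with a median difference of -0.07. Of all 20777 genes read the same way 18.7% were higher and 15.3% lower, 34.1% together, with a median of -0.03. The counts by role below stand against these shares, and nothing is read from them. When arrays were scaled to the 75th percentile of detected probes, the split became 6 higher and 26 lower, as the median of all probes moved from -0.06 to -0.27. Without control replicate 1, or without control replicate 2, none of the 65 passed, with 19 at an unadjusted p under 0.05 each time.

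**Figure D3:**
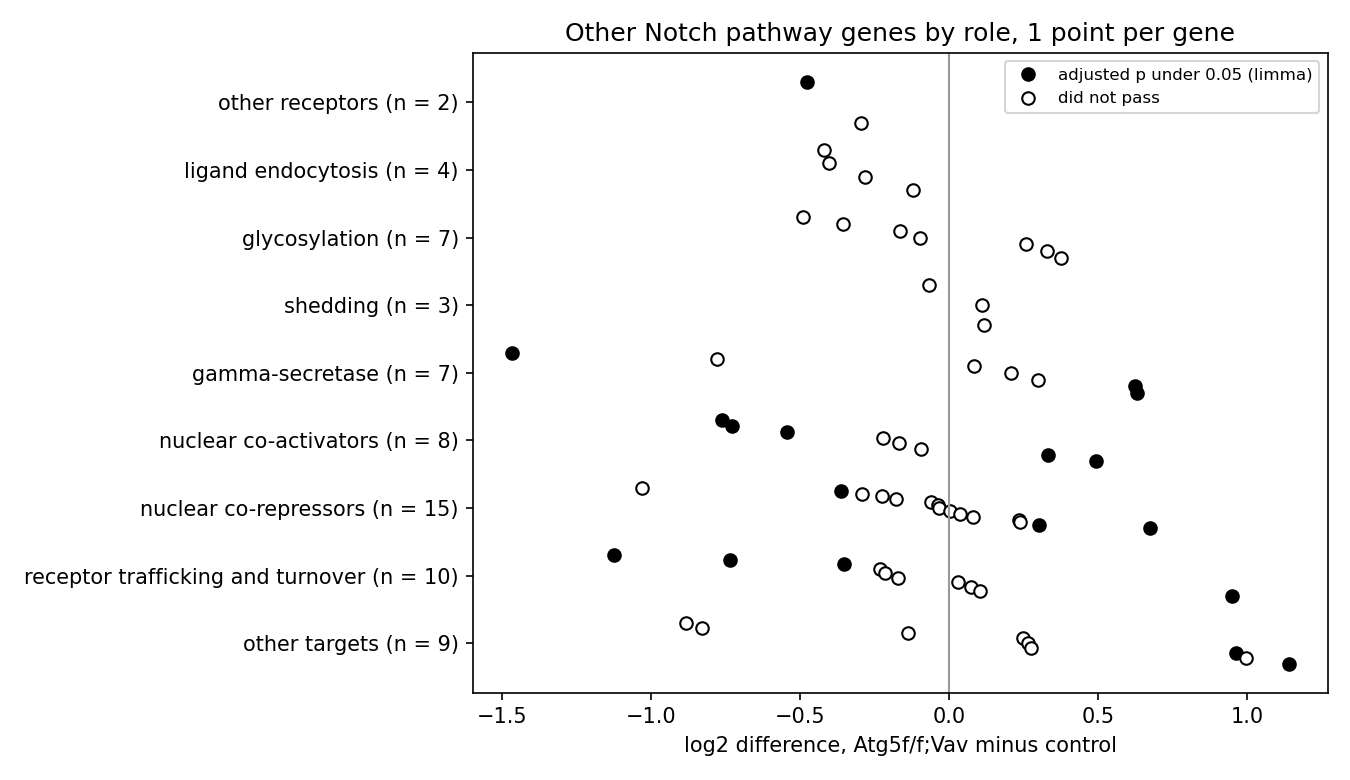
Log2 difference between Atg5f/f;Vav and control (horizontal axis) of the 65 other Notch pathway genes with a tested probe, 1 point per gene, in rows by role, with filled points for genes past limma's adjusted p of 0.05. Points lie on both sides of 0 in most rows, and the 4 genes of ligand endocytosis, the 7 of glycosylation and the 3 of shedding hold no filled point.

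Of the remaining receptors Notch3 was lower. It read 0.44, 0.57 and 0.35 in the controls and -0.10, 0.04 and -0.002 in Atg5f/f;Vav, a difference of -0.48 (SE 0.11, limma adjusted p = 0.022). Notch4 differed by -0.30 (adjusted p = 0.143) and its groups overlapped, though it passed, lower, with scaling to detected probes (adjusted p = 0.045) and without Atg5f/f;Vav replicate 1 (0.048). The ligands Dll3 and Dll4 were too dim to be tested. At their brightest probes, no gene passed among the 4 of ligand endocytosis, the 7 that glycosylate the receptors and the 3 of shedding. A dimmer probe of the glycosylation gene Lfng was lower (-0.95, adjusted p = 0.020). It was well above background on no Atg5f/f;Vav array, so the size of that difference cannot be read. The brightest Lfng probe differed by -0.36. A dimmer Pofut1 probe was lower as well (-0.76, adjusted p = 0.018), whereas the brightest differed by -0.10. The remaining Pofut1 probes differed by -0.01 and 0.40 and did not pass.

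Gamma-secretase, the complex that frees the intracellular part of the receptor, had 1 gene higher, 1 lower and 4 that did not pass among the 6 subunit genes given here. Psen2, a catalytic subunit, read 1.47, 1.46 and 1.52 in the controls and 1.81, 2.06 and 2.48 in Atg5f/f;Vav, a difference of 0.63 (SE 0.18, limma adjusted p = 0.035), with 0.92 at its other probe. The Psen2 groups did not overlap at the brighter probe. Its adjusted p rose to 0.072 with quantile normalisation, to 0.074 when arrays were scaled to detected probes or without control replicate 3, and to 0.069 without Atg5f/f;Vav replicate 2.

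Aph1b, a scaffold subunit, was the lower one. It read -2.06, -2.10 and -2.36 in the controls and -3.45, -3.28 and -4.19 in Atg5f/f;Vav, a difference of -1.47 (SE 0.24, limma adjusted p = 0.015), and -1.57 at its other probe. Each Aph1b probe was well above background on only 2 of the 3 Atg5f/f;Vav arrays. With normexp the difference at the first probe came to -0.80, and it still passed. Its paralogue Aph1c differed by -0.78 (adjusted p = 0.068), and passed, lower, with normexp (0.033), with scaling to detected probes (0.040) and without Atg5f/f;Vav replicate 1 (0.027). The related sequences of Aph1b and Aph1c may share signal. Aph1a, which can take the same place in the complex, differed by 0.30 (adjusted p = 0.138, and 0.047 without Atg5f/f;Vav replicate 1), and by 0.54 (adjusted p = 0.023) at another of its 4 probes. Ncstn, which receives the substrate, differed by 0.21 (adjusted p = 0.207) and Psenen by 0.08 (adjusted p = 0.538).

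**Figure D4:**
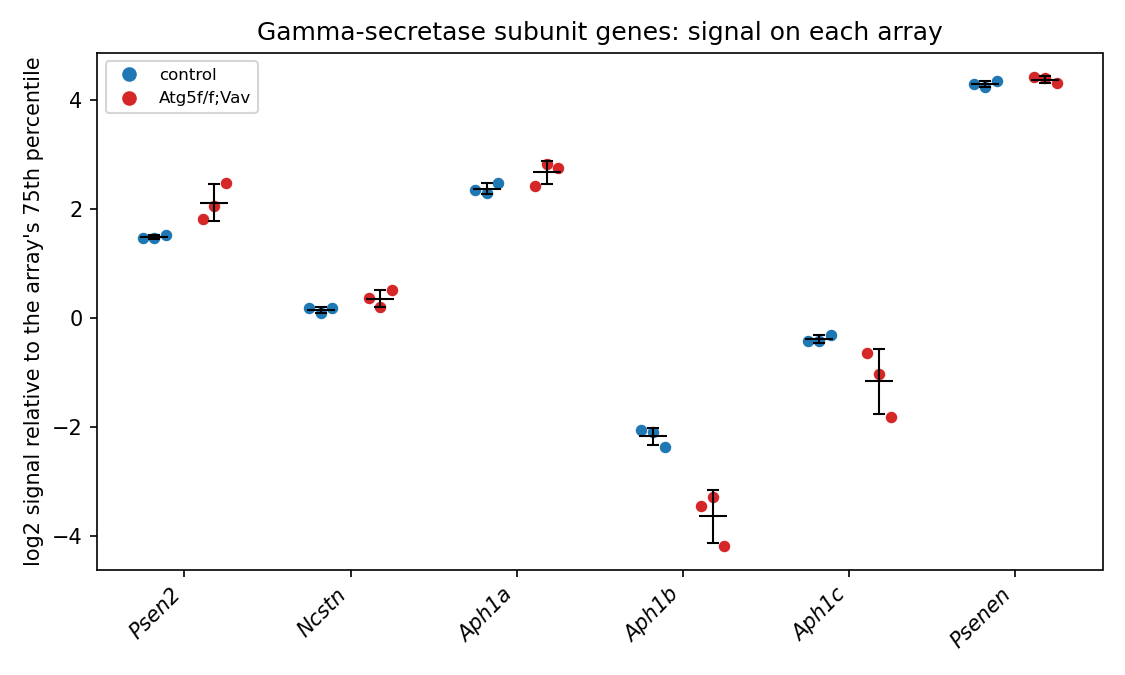
Log2 signal relative to the array's 75th percentile (vertical axis) of 6 gamma-secretase subunit genes on the 3 control and 3 Atg5f/f;Vav arrays, 1 point per array, with the mean as a long bar and the SD as the error bar. Psen2 is higher and Aph1b lower in Atg5f/f;Vav without overlap, and Psenen is level, from 4.24 to 4.41.

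In the nucleus, the 8 co-activators had 2 genes higher and 3 lower (18.7% and 15.3% of all genes were). Of the Mastermind-like proteins that complete the complex with Rbpj, Maml2 (-0.76, SE 0.23, limma adjusted p = 0.041) and Maml3 (-0.73, SE 0.19, adjusted p = 0.027) were lower. Their other probes differed by -0.72 and -0.48 and did not pass. The acetyltransferase gene Kat2a (0.49, adjusted p = 0.019) and Snw1 (0.33, adjusted p = 0.049), which also serves in splicing, were higher. Of the 15 co-repressors tested, Sap30, of the Sin3 histone deacetylase complex (0.68, adjusted p = 0.018), and Ctbp1 (0.30, adjusted p = 0.049) were higher and Tle2, of the Groucho family, was lower (-0.36, adjusted p = 0.036, and -1.48 at its other probe). The other Snw1 probe differed by 0.21 and the other Ctbp1 probe by -0.01, and neither passed. Under quantile normalisation Snw1 differed by -0.02 and Ctbp1 by -0.08 at their brightest probes, so their direction depended on the scaling. Some genes that did not pass at their brightest probe had a dimmer probe that passed, lower in each case. For the co-activator Ep300 it differed by -0.52 (limma adjusted p = 0.020). For the co-repressors it was -0.58 and -0.41 at Ncor1 (0.027 and 0.047), -0.64 at Spen (0.030), -0.76 at Kdm5a (0.033) and -0.45 at Tle4 (0.024). Their brightest probes differed by -0.09, 0.08, 0.04, -0.06 and -0.04 in that order.

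Of 10 genes of receptor trafficking and turnover, 1 was higher and 3 lower (18.7% and 15.3% of all genes were). Numbl read 1.69, 1.93 and 1.42 in the controls and 0.74, 0.74 and 0.20 in Atg5f/f;Vav, a difference of -1.12 (SE 0.20, limma adjusted p = 0.016). Its relative Numb, an adaptor that inhibits Notch by directing it to endosomes, was lower as well (-0.74, SE 0.15, adjusted p = 0.017), though the other Numbl probe differed by -0.57 and did not pass. Dtx3l, a ubiquitin ligase of the Deltex family, read 1.84, 1.69 and 1.85 in the controls and 2.53, 2.67 and 3.03 in Atg5f/f;Vav, a difference of 0.95 (SE 0.15, adjusted p = 0.015).

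Of 14 further genes known as Notch targets, 9 were tested, 2 were higher and none lower (18.7% and 15.3% of all genes were). Myc, a growth regulator with many inputs besides Notch, read 2.12 ± 0.16 in the controls and 3.08 ± 0.12 in Atg5f/f;Vav (SD, n = 3 each), with no control above 2.30 and no Atg5f/f;Vav array below 2.94, a difference of 0.96 (SE 0.13, limma adjusted p = 0.012), and 0.90 at its other probe. Cdkn1a, a cell cycle inhibitor better known as a target of p53, read -1.84, -1.41 and -0.95 in the controls and -0.15, -0.35 and -0.27 in Atg5f/f;Vav, a difference of 1.14 (SE 0.22, adjusted p = 0.017). Hes5, a close relative of Hes1, read 1.40, 1.28 and 1.44 in the controls and 1.03, 0.69 and -0.09 in Atg5f/f;Vav, a difference of -0.83 that did not pass (adjusted p = 0.054). It passed, lower, with normexp (adjusted p = 0.022), with quantile normalisation (0.047), with scaling to detected probes (0.034), and without Atg5f/f;Vav replicate 1 (0.026) or replicate 3 (0.039), where its difference ranged from -1.07 to -0.51. Over all its alternatives the adjusted p ranged from 0.022 to 0.135. Its other probe was well above background on no array. Hey1, Hey2 and Heyl, targets of the same class, and Ptcra and Bcl11b, genes of early T cells, were too dim to be tested.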

How the data were processed

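RNA of sorted LSK cells was labelled with Cy3 and hybridised to 1-colour Agilent arrays, 1 per sample. The authors deposited scanner files with the intensity of each spot, background-corrected by Feature Extraction 12.0.3.1 (per the labels), and a table of normalised signal on a linear scale. That signal was each intensity divided by 1 number per array, constant within an array to 0.000267%. The divisor lay close to the 75th percentile of all 62976 spots of the array. They were furthest apart on control replicate 2, at 571.91 against 571.67.

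From the intensity, log2 values were taken minus the 75th percentile of the 59305 gene spots (controls excluded). Each array had 64 to 81 such spots flagged as outliers, which were dropped, and no saturated spot. Spots of a probe were averaged. Limma 3.58.1 in R 4.3.3 (lmFit, eBayes, 2-sided, Benjamini-Hochberg over all probes, threshold 0.05) was run on 32073 probes, those called well above background in 3 or more of the 6 samples. Precision is limited by the number of arrays. Probe coordinates are those of the deposited files (mm9).

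The Notch genes, the pathway list, the markers and the rules were chosen with earlier results of these data known. Every probe of the 10 genes is named. Of the other pathway genes, up to 2 each way per role past the threshold are named, with Notch3, Notch4, Dll3, Dll4, Hes5, Hey1, Hey2, Heyl and gamma-secretase whatever their call. A gene that falls under this rule is counted but not reported here. Ptcra, Bcl11b, Lfng, Pofut1, Ep300, Ncor1, Spen, Kdm5a, Tle4 and the single markers were named after their values were seen.

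Alternatives tried were quantile normalisation, normexp (offset 50), the 75th percentile of detected probes, the deposited signal, a filter on all 6 arrays or none, flagged spots retained, the methods' t-test, eBayes with a trend, a replicate block, leaving out each array, and averaging a gene's probes. With 1 slide and 1 scan, no slide block could be fitted. In data simulated for this comparison on 32065 probes, limma found 44 of 100 probes with a log2 change of 1 and 80 of 100 with a log2 change of 2, and made 6 false calls. For the methods' t-test these numbers were 11, 42 and 2. Only those probes were changed in the simulated data, and noise was drawn for each probe independently. On the real arrays 34.4% of probes passed and noise may be shared between probes, so these numbers are not rates for the real arrays.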

Additional observations from a re-analysis of the deposited data

How the results depend on the processing

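The count of Notch gene probes past the threshold was 2, and it was 1 with quantile normalisation, 1 without a filter on dim probes, 0 by the methods' t-test (3 at an unadjusted p under 0.05), and 0 to 2 with each array left out. The count over all probes was 11024 (5540 higher and 5484 lower), and it was 4538 without a filter, 0 by the methods' t-test (13539 unadjusted), and 251 to 10304 with each array left out, with 330 without control replicate 1 and 251 without control replicate 2 against at least 7722 without any other. Scaling to the 75th percentile of detected probes gave 3371 higher and 10088 lower. The count of other pathway genes was 18, and it was 32 with that scaling, 7 without a filter, 0 by the methods' t-test (25 unadjusted), and 0 to 21 with each array left out. Under quantile normalisation Snw1 (-0.017) and Ctbp1 (-0.077) changed sign, with adjusted p of 0.885 and 0.560. Of the 22 other pathway genes examined singly, 16 had passed, and all 16 missed the threshold without control replicate 1 and without control replicate 2. Without control replicate 3, 5 of them missed it, and without Atg5f/f;Vav replicates 1, 2 and 3 in turn 3, 5 and 2 did. Hes5, Aph1c, Notch4 and Aph1a, which had missed the threshold, passed it under some alternatives. Dtx4 passed with normexp, with an intensity trend and without control replicate 3, and the second Rbpj probe passed, lower, with scaling to detected probes.

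The replicate numbers were not taken to pair the samples. Deviations from the group means correlated at -0.065, 0.189 and 0.111 for numbers 1, 2 and 3, and control replicate 1 correlated best with Atg5f/f;Vav replicate 2. With the replicate number as a block, 10172 of all probes, 2 Notch gene probes and 13 other pathway genes passed. Genes near background, such as Jag1, Hes1, Dll1 and Dtx1, are limited by signal over background, and no difference between groups can be read for them at this brightness.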
